A study of Mus musculus with 10 samples.

Results

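The genes described here encode the enzymes that activate fatty acids and oxidize them, with the carnitine carriers, electron carriers and thioesterases that work beside them. They were taken by name from a list of 43 gene symbols, all of which were among the 25239 symbols measured. RNA was sequenced from cardiomyocytes, the contractile muscle cells of the heart, of wild-type (WT) mice. There were 5 libraries from the atrium and 5 from the ventricle, with replicate numbers 1 to 5 in each chamber. The labels name no allele, treatment or agent, and the strain, the age and the way cells were isolated were not given in the sources used here. Nor is it said that replicates of a chamber are different animals. The p-values therefore describe the spread among these libraries, part of which may be technical.

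Long-chain fatty acids are the main fuel of the adult heart. In the cell they are joined to coenzyme A, passed across the mitochondrial inner membrane on carnitine, and shortened in repeated rounds of dehydrogenation, hydration, a further dehydrogenation and thiolysis, each round releasing acetyl-CoA. Electrons of the first dehydrogenation reach the respiratory chain through the electron transfer flavoprotein. Malonyl-CoA, made by acetyl-CoA carboxylase, blocks the entry of long chains at carnitine palmitoyltransferase, peroxisomes take very long and branched chains, and thioesterases release free fatty acids from coenzyme A again.

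Values are normalized reads, which are read counts divided by a size factor for each library. The libraries fall into 2 sets that the labels do not name. Replicates 1 and 2 of both chambers held 1790402 to 4445287 reads, with 0.215% to 0.480% of them from the ribosomal RNA precursor Rn45s, and replicates 3 to 5 held 11163805 to 12842635 reads, with 23.1% to 29.8% from Rn45s. Each set holds both chambers. The test was limma, run on the 12422 genes whose mean reached 10 normalized reads, all 43 described here among them. It used log2(normalized reads + 1), and p-values were adjusted over all genes tested. Each log2 difference is the atrial mean less the ventricular mean of those logs, and it is too small for genes with few reads because of the added 1. Folds are ratios of group means. Errors are SD over n = 5 libraries for means and SE for log2 differences.

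Many transcripts of fatty acid oxidation were lower in atrial than in ventricular cardiomyocytes. At least 1 gene was called lower in each of the 9 groups of genes listed, which include malonyl-CoA control and thioesterases beside the steps of oxidation. The carnitine, electron transfer and peroxisomal groups had 1 called gene each, and the peroxisomal call was lost when certain single libraries were left out. Of the 43 genes, 21 were lower in atrial cells at an adjusted p of 0.05 (limma), none was higher, and 22 did not pass. Over all 12422 genes tested, 6.56% were called lower and 8.12% higher in atrial cells (14.7% in either direction). The median log2 difference of the 43 was -0.61, beside -0.01 over all genes tested, and 39 of the 43 estimates were below 0, beside 51.3% of all genes tested. With the replicate number as a block, 33 of the 43 were lower and 1 was higher in atrial cells, where 16% of all genes tested were called lower and 16.3% higher. That block treats same-numbered libraries as pairs, which the labels do not state. Library set as a term in the fit gave 30 lower (15.8% of all genes), and of the 13 genes that the block added, Acss2, Cpt1a, Acaca and Acaa2 did not pass with it. On the recovered reads, 22 were lower by edgeR's quasi-likelihood test (7.29% of all genes), which added Etfb, and 23 by DESeq2 (9.81%), which added Etfb and Eci2. For 17 of the 43, all 5 ventricular values lay above all 5 atrial values (6.55% of all genes tested), and for none did the reverse hold (7.84%).

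By step, the hydratase to thiolase group had 5 of 6 genes lower in atrial cells, with a median log2 difference of -0.71. The 3 electron transfer genes had the lowest median, -0.94, with 1 called and all 3 lower with the replicate block. Medians were -0.89 for 6 thioesterases (3 lower), -0.77 for 3 genes of unsaturated chains (2 lower) and -0.68 for 3 genes of malonyl-CoA control (2 lower). They were -0.57 for 7 acyl-CoA dehydrogenases and -0.52 for 6 activating enzymes, with 3 lower in each. The carnitine and peroxisomal genes had 1 lower each, with medians of -0.34 and -0.37. The carnitine median includes Cpt1b, whose level is uncertain for the reason given below. These counts and medians describe small groups and were not tested against each other.

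**Figure D1:**
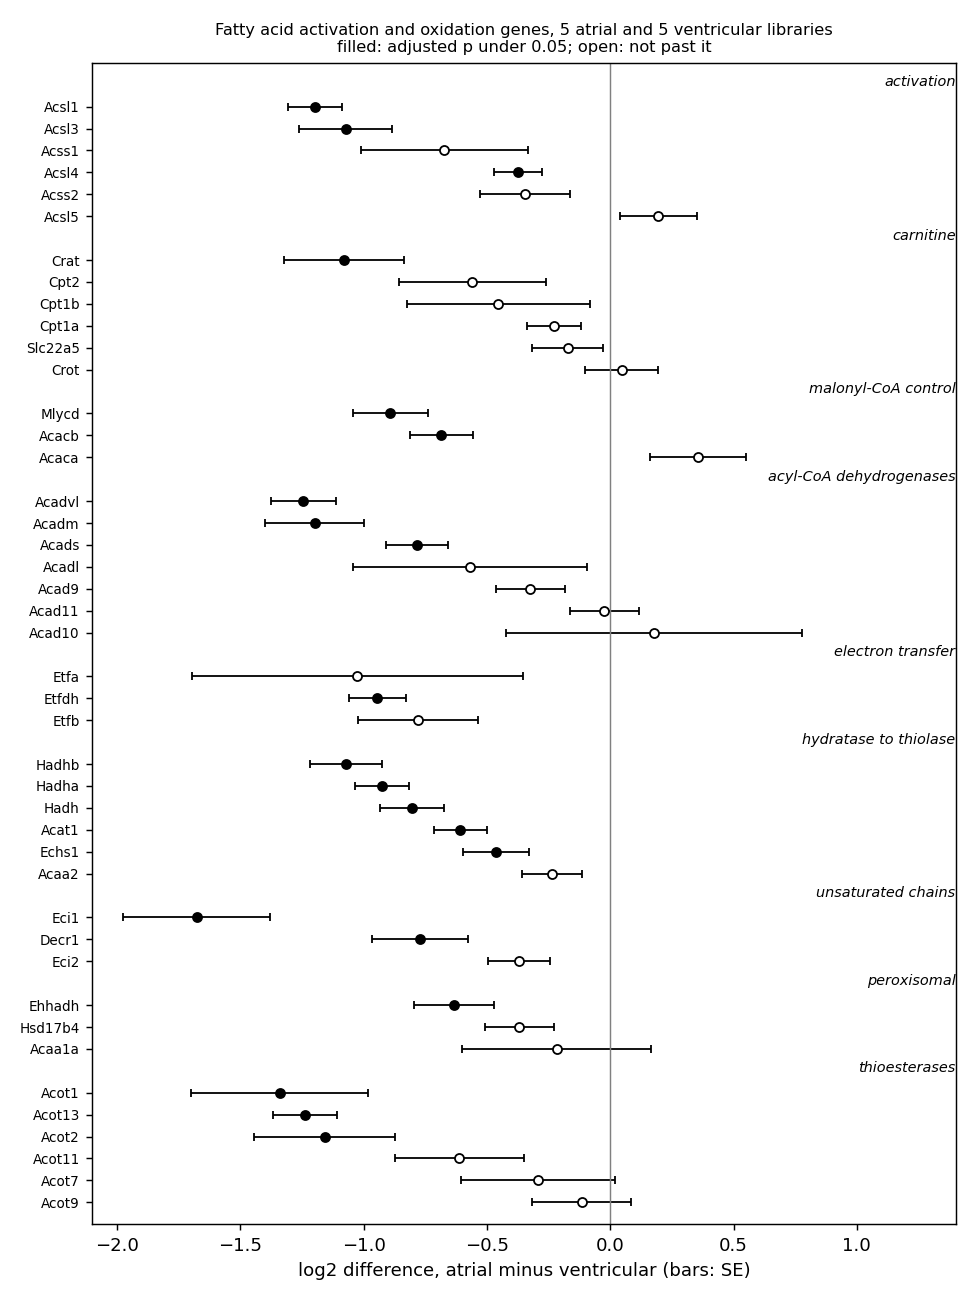
Log2 difference (atrial minus ventricular, x axis) of each of the 43 genes, grouped by step, with bars of 1 SE; filled points passed an adjusted p of 0.05 and open points did not. All 21 filled points lie left of 0, from Acsl4 at -0.37 to Eci1 at -1.68, and the open points reach from Etfa at -1.03 to Acaca at 0.36.

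As a share of all reads other than Rn45s and Lars2 (under whose symbol ribosomal RNA reads are often counted), the 43 genes took 0.588, 0.744, 0.838, 0.840 and 0.820% in atrial replicates 1 to 5 and 1.03, 1.19, 1.50, 1.35 and 1.38% in ventricular replicates 1 to 5. The groups did not overlap, and the ratio of the ventricular to the atrial mean was 1.68. The ratio was largest for the 6 activating enzymes, at 1.95, and for the 6 thioesterases, at 1.93, and smallest for the 3 peroxisomal enzymes, at 1.25. These sums are led by the most abundant members and were not tested.

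The labelled cell types were checked against marker lists. The 8 general cardiomyocyte markers summed to 347268 to 829824 normalized reads in atrial and 364432 to 725984 in ventricular libraries, with 1 of 8 lower in atrial cells. The upper ends, both in replicate 1, are led by Ttn, at 373180 in atrial and 279315 in ventricular replicate 1. In replicates 3 to 5 of both chambers Ttn was at 22745 to 30391, so these sums also differ by library set. The 4 atrial markers (Myl7, Myl4, Sln and Nppa) summed to 122141 to 440368 normalized reads in atrial and 2615 to 27742 in ventricular libraries, and the 4 ventricular markers (Myl2, Myl3, Irx4 and Hey2) to 461 to 1743 and 114947 to 161460, with every marker called in its own chamber. Markers of other cells also moved. All 6 epicardial markers were higher in atrial cells (2561 to 6066 against 332 to 1703 summed normalized reads), 2 of 6 smooth muscle and pericyte markers were lower (1647 to 6469 against 8964 to 15443) and 2 of 6 fibroblast markers were lower (13828 to 32803 against 5750.3 to 49289). Of 6 endothelial markers, 1 was higher in atrial cells (314 to 2445 against 85.3 to 1152), and replicate 1 had the highest sum of each chamber. Of 8 adipocyte markers, 7 were under the test's minimum, with Adipoq and Ucp1 at 0 outside atrial replicate 1, and Cidea, the single one above it, was lower in atrial cells. The adipocyte sums were 56.6 to 109 and 149 to 227. Immune markers summed to 75.9 to 127 and 21.1 to 118, with 1 of 6 higher in atrial cells, and neuronal and glial markers to 95.3 to 161 and 60.8 to 129, with none called. Erythroid markers summed to 19.5 to 634 and 81.2 to 263, all of it from Alas2, since the 3 globin genes listed were at 0 in every library. The part of these cells in the differences below was not tested. In bulk RNA, fewer cells of a type and less RNA per cell cannot be told apart.

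Promoters are shown for 4 of the genes called lower in atrial cells, as examples. Nuclear receptors of the PPAR and ERR families are known to bind the hexamer AGGTCA near genes of fatty acid oxidation. Acacb and Echs1 were also called lower and hold the hexamer but are not shown, so these 4 do not give its share among the genes. The windows run from 250 bases before to 50 bases after the RefSeq start (GRCm38.p6), on the gene's strand. In the window of Hadhb capitals mark the 228 bases that also lie in the window of Hadha, which is read on the opposite strand from a start close by. In those of Acadvl and Acadm capitals mark the hexamer or its reverse complement, and that of Eci1, the gene with the largest log2 difference, holds none.
Hadhb, chr5:30155003-30155302, plus strand: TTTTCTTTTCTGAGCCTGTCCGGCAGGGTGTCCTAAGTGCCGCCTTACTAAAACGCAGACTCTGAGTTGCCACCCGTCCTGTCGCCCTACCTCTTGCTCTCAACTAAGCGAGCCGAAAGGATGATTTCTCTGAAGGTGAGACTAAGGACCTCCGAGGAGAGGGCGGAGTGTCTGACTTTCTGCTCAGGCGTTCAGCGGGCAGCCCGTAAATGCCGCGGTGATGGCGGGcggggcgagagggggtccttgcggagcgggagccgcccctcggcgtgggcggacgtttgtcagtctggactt
Acadvl, chr11:70015379-70015678, minus strand: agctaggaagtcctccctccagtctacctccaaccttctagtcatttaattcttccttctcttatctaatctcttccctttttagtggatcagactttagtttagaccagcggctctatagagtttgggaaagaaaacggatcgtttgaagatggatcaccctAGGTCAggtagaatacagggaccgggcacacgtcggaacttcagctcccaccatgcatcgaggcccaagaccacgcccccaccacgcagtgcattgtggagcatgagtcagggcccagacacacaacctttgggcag
Acadm, chr3:153944594-153944893, minus strand: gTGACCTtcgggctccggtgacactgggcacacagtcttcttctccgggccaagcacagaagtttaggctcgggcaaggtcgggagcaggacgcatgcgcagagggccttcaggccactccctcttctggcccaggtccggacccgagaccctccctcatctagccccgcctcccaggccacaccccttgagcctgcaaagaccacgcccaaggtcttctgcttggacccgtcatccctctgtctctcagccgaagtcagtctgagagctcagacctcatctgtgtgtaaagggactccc
Eci1, chr17:24426433-24426732, plus strand: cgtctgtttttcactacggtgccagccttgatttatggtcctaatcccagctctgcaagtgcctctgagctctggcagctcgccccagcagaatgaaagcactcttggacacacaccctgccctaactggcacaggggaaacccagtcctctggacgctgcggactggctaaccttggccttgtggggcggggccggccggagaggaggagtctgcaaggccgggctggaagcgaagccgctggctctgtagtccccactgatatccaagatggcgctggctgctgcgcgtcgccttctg

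Windows were found for 35 of the 43 genes, and none for Acaa2, Acad9, Acat1, Acot13, Cpt1b, Crat, Decr1 and Hsd17b4. AGGTCA was present on either strand in the windows of 5 of these 35 genes (14.3%), Acacb, Acadm, Acadvl, Cpt1a and Echs1, and in those of 14.2% of the 9855 tested genes with a window. The longer ERR form TNAAGGTCA, which contains the hexamer, was in none of the 35 and in 0.873% of tested genes. The direct repeat AGGTCANAGGTCA was in none of the 35 and in 0.0507% of tested genes. A match is a stretch of letters and not a bound site, and binding outside the windows was not examined.

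Transcripts of 3 of the 4 listed long-chain acyl-CoA synthetases were lower in atrial cells. Acsl1, the main synthetase of heart muscle (chromosome 8, 46471037 to 46536051, GRCm38), stood at 1967, 2352, 2087, 2202 and 2108 normalized reads in atrial replicates 1 to 5 and at 4785, 5552, 5402, 4243 and 4674 in ventricular replicates 1 to 5. Every ventricular library was above every atrial one, and the means of 2143 ± 144 and 4931 ± 540.3 differed 2.30-fold (log2 difference -1.20 ± 0.11, limma, adjusted p = 3.99e-05). Acsl3, a synthetase of the endoplasmic reticulum and lipid droplets, was at 399, 509.6, 337, 334 and 371 in atrial and 1207, 899, 687, 652 and 725 in ventricular libraries. Its groups did not overlap either, with ventricular replicate 1 the highest (2.14-fold, log2 difference -1.07 ± 0.19, adjusted p = 0.00289). Acsl4, which prefers arachidonic acid, differed less, from 444, 359.9, 389, 363 and 358 in atrial to 464, 489.9, 499, 501 and 520.2 in ventricular libraries (log2 difference -0.37 ± 0.10, adjusted p = 0.0252). The call for Acsl4 was lost without any single one of replicates 3, 4 or 5 of either chamber (adjusted p = 0.0580 to 0.0729). Acsl5, a further isoform, was at 169.6, 178, 126, 123 and 163 in atrial and 138, 163, 112, 130.3 and 117 in ventricular libraries, overlapping, and did not pass (log2 difference 0.19 ± 0.16, adjusted p = 0.519; 0.191 with the replicate block).

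The 2 acetyl-CoA synthetases, which activate acetate, did not pass without the block. Acss1, the mitochondrial enzyme, was at 113, 79.2, 216, 206 and 219 in atrial and 197, 144, 338, 305 and 312 in ventricular libraries. It was higher in the ventricular library of each same-numbered pair while the chambers overlapped, with replicates 1 and 2 lower than replicates 3 to 5 in both (log2 difference -0.67 ± 0.34, limma, adjusted p = 0.245; 0.000628 with the replicate block). Acss2, the cytosolic and nuclear enzyme, differed by -0.35 ± 0.18 (adjusted p = 0.271; 0.0427 with the block, 0.0973 with library set as a term and 0.111 in replicates 3 to 5 alone).

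Of the 6 carnitine genes, Crat alone passed the test. Crat, carnitine acetyltransferase, which buffers acetyl-CoA in the mitochondrial matrix (chromosome 2, 30400471 to 30415813), was at 829, 1000.4, 1447, 1488 and 1558 normalized reads in atrial and 1637, 2223, 3469, 2952 and 3156 in ventricular libraries. The chambers did not overlap, and within each the lowest values were those of replicates 1 and 2 (2.13-fold, log2 difference -1.08 ± 0.24, limma, adjusted p = 0.0122). Cpt2, which returns acyl groups from carnitine to coenzyme A inside the mitochondrion, was at 232, 348, 438, 421 and 445 in atrial and 287, 405, 799, 694 and 719 in ventricular libraries, overlapping between chambers and higher in the ventricular library of all 5 pairs (log2 difference -0.56 ± 0.30, adjusted p = 0.281; 0.00467 with the replicate block). Cpt1a, the liver isoform of the outer-membrane transferase that malonyl-CoA inhibits, was at 652, 756, 657, 671 and 645 in atrial and 685, 916, 882, 718 and 778 in ventricular libraries. The ranges overlapped, and the difference of -0.23 ± 0.11 did not pass (adjusted p = 0.227; 0.0441 with the block and 0.0829 with library set as a term). Slc22a5, the plasma membrane carnitine transporter OCTN2, and Crot, the peroxisomal carnitine octanoyltransferase, differed by -0.17 ± 0.14 and 0.05 ± 0.15 and did not pass with or without the block (adjusted p = 0.544 and 0.911 without it, 0.262 and 0.781 with it).

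Cpt1b, the muscle isoform of that transferase (chromosome 15, 89416405 to 89425863), was listed at only 26.2, 25.9, 15.9, 14.7 and 14.2 normalized reads in atrial and 48.4, 43.9, 21.1, 17.4 and 14.8 in ventricular libraries. Its level is uncertain. In the GENCODE M21 annotation 81.4% of its exon bases are also exon bases of Gm44502, a gene on the same strand that RefSeq also lists under the joint name Chkb-Cpt1b, and Gm44502 was listed at 0 in all 10 libraries. Chkb, the other gene of that name, was listed at 0 in 6 libraries and at no more than 1.18 in the others. How reads in shared exons were counted was not given in the sources used here, so the difference of -0.45 ± 0.37 (limma, adjusted p = 0.528; 0.136 with the replicate block) may not measure the muscle isoform.

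Transcripts for both arms of malonyl-CoA control were lower in atrial cells, those of the enzyme that makes it at the mitochondrion and of the one that removes it. Acacb, the mitochondrial acetyl-CoA carboxylase (chromosome 5, 114146535 to 114250761), was at 501, 445, 471, 510.0 and 499 normalized reads in atrial and 599, 895, 921, 757 and 769.7 in ventricular libraries, with no overlap (1.63-fold, log2 difference -0.68 ± 0.13, limma, adjusted p = 0.00407). Mlycd, malonyl-CoA decarboxylase, was at 108, 171, 124, 139.7 and 138 in atrial and 208, 246, 299, 281 and 229.8 in ventricular libraries (1.86-fold, log2 difference -0.89 ± 0.15, adjusted p = 0.00248). Acaca, the cytosolic carboxylase of fatty acid synthesis, leaned the other way, at 254, 137, 137, 147 and 163 in atrial and 169.5, 112, 128, 125 and 109 in ventricular libraries. Acaca was the higher in the atrial library of all 5 same-numbered pairs, the only one of the 43 genes with that pattern, and passed with the replicate block alone of the fits over all 10 libraries (log2 difference 0.36 ± 0.19, adjusted p = 0.294; 0.0317 with the block and 0.133 with library set as a term).

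**Figure D2:**
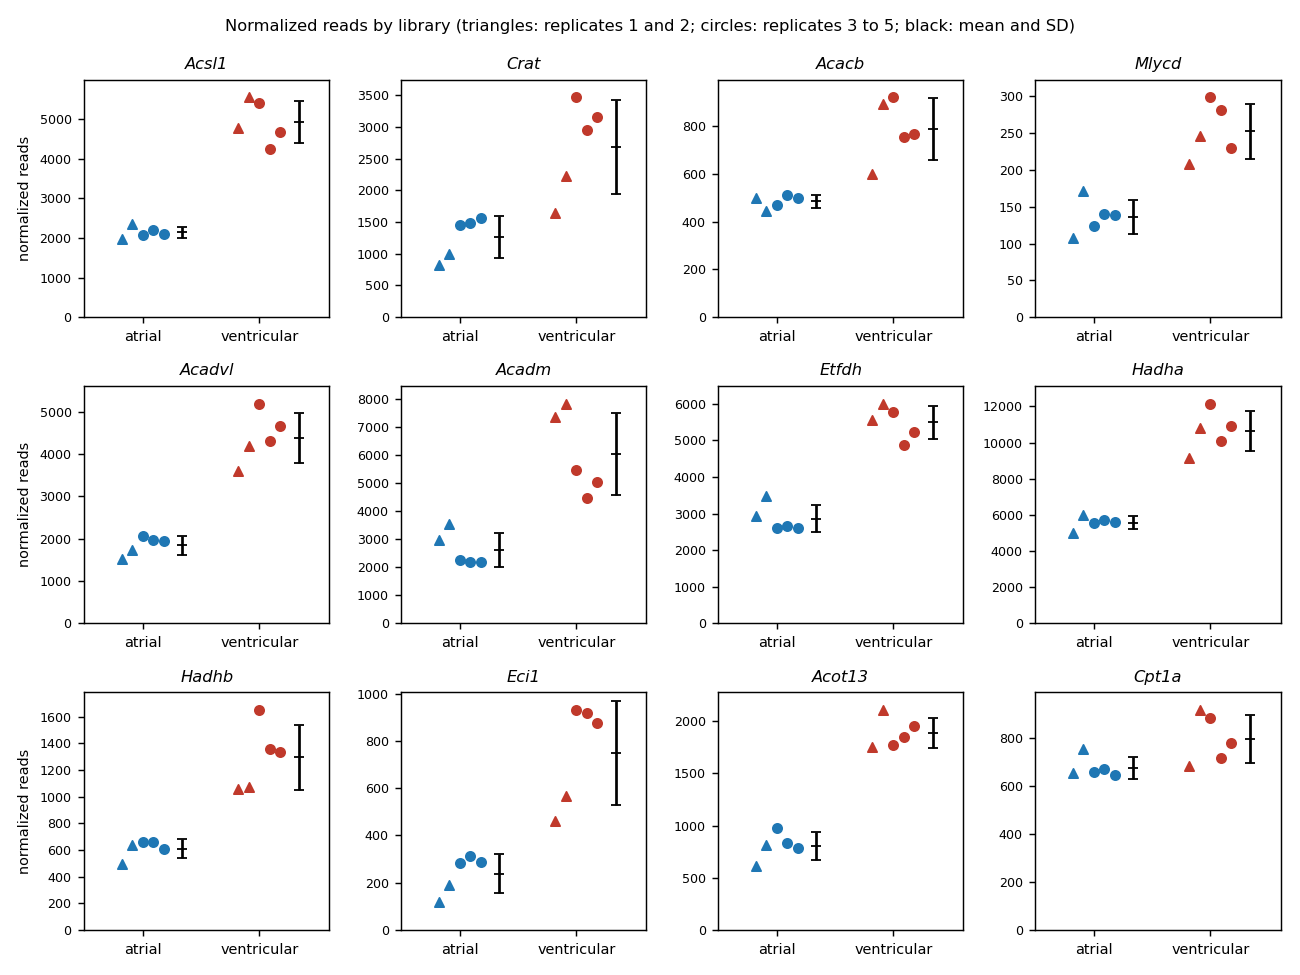
Normalized reads (y axis, from 0) of 12 genes in each library, atrial in blue and ventricular in red, with triangles for replicates 1 and 2, circles for replicates 3 to 5, and the mean and SD in black. For 11 of them the red points all lie above the blue ones; for Cpt1a they overlap.

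Acyl-CoA dehydrogenases open each round and differ in the chain length they take. Among them, transcripts of the classic enzymes for very long, medium and short chains were lower in atrial cells. Acadvl, for very long chains (chromosome 11, 70010183 to 70015411), was at 1523, 1723, 2075, 1965 and 1946 normalized reads in atrial and 3588, 4178, 5186, 4298 and 4659 in ventricular libraries. The groups were well apart, and the means of 1846 ± 221 and 4382 ± 592 differed 2.37-fold (log2 difference -1.24 ± 0.13, limma, adjusted p = 0.000117). Of its exon bases, 42.9% are also annotated to Dvl2 on the opposite strand, which stood at 62.1 to 95.5 normalized reads, far below Acadvl. Acadm, the medium-chain enzyme (chromosome 3, 153922357 to 153944632), was at 2982, 3537, 2247, 2180.5 and 2173 in atrial and 7369.5, 7829, 5465, 4486 and 5055 in ventricular libraries. In both chambers replicates 1 and 2 were the highest, and the chambers did not overlap (2.30-fold, log2 difference -1.20 ± 0.20, adjusted p = 0.00225). Acads, the short-chain enzyme, was at 182, 226, 224, 231 and 240.1 in atrial and 318, 427, 444, 363 and 356 in ventricular libraries, again without overlap (1.73-fold, log2 difference -0.78 ± 0.13, adjusted p = 0.00182).

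Acadl, the long-chain enzyme, was divided more by library set than by chamber. It was at 2481, 1901, 6283, 6201 and 6041 normalized reads in atrial and 3619, 2739.6, 10151, 8580.2 and 9263 in ventricular libraries, so that replicates 3 to 5 averaged 2.89 times replicates 1 and 2. Each ventricular library exceeded the atrial one of the same number (log2 difference -0.57 ± 0.47, limma, adjusted p = 0.538; 0.000226 with the replicate block). The other dehydrogenases did not pass. Acad9, which also serves the assembly of respiratory complex I, differed by -0.32 ± 0.14 (adjusted p = 0.163; 0.0275 with the block) and Acad11 by -0.02 ± 0.14 (0.955; 0.859). Acad10 was the lowest of the 43 per length of exon, averaging 13.7 ± 7.55 normalized reads in the atrium and 10.1 ± 4.57 in the ventricle (limma, adjusted p = 0.918).

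For electron transfer from these dehydrogenases, the transcript of the last carrier was lower in atrial cells. Etfdh, the ubiquinone oxidoreductase that hands the electrons to the respiratory chain (chromosome 3, 79603788 to 79629500), was at 2931, 3479, 2612, 2671 and 2603 normalized reads in atrial and 5563, 5996, 5764, 4867 and 5236 in ventricular libraries, with no overlap (1.92-fold, log2 difference -0.94 ± 0.12, limma, adjusted p = 0.000338). The flavoprotein subunits did not pass without the replicate block and did with it. Etfa, the alpha subunit, was at 299, 291, 1446, 1452 and 1367 in atrial and 647, 595, 3017, 2799 and 2705 in ventricular libraries, and its level in replicates 3 to 5 was 4.65 times that in replicates 1 and 2, the widest such gap of the 43 genes. Within each set the ventricular libraries were all above the atrial ones (log2 difference -1.03 ± 0.67, adjusted p = 0.397; 1.06e-05 with the block). Etfb, the beta subunit, was at 996, 1438, 2178, 2114 and 1971 in atrial and 1996, 2472, 3375, 3421 and 3412 in ventricular libraries (log2 difference -0.78 ± 0.24, adjusted p = 0.0560; 9.97e-05 with the block), and it passed when ventricular replicate 1 was left out (adjusted p = 0.0286). In the annotation 53.0% of its exon bases also belong to Gm45233 on the same strand, which was not analysed here.

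**Figure D3:**
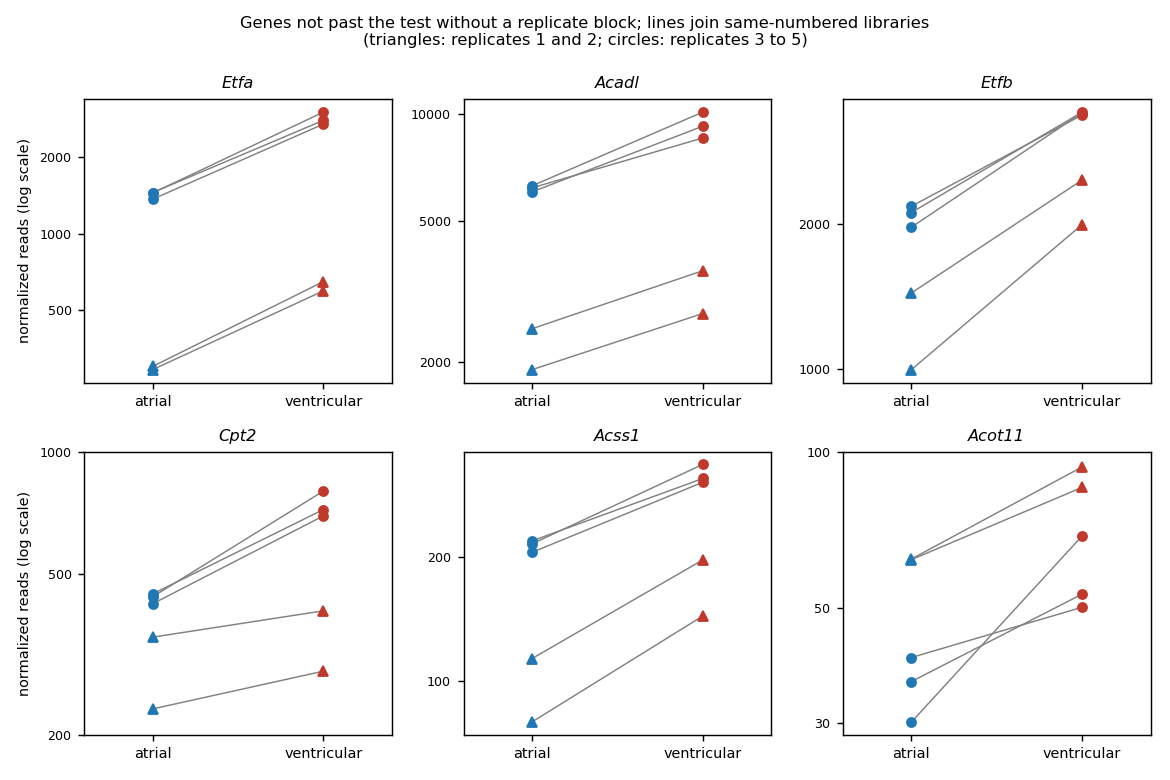
Normalized reads (y axis, log scale) of 6 genes that passed with the replicate block and not without it; lines join the atrial and ventricular libraries of the same number, with triangles for replicates 1 and 2 and circles for replicates 3 to 5. All 30 lines rise toward the ventricle, while for Etfa and Acadl the circles lie far above the triangles in both chambers.

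For the steps that finish each round, transcripts of 5 of 6 genes were lower in atrial cells. Hadha and Hadhb encode the alpha and beta subunits of the mitochondrial trifunctional protein, from neighbouring genes whose promoter windows overlap. The protein carries out hydration, the further dehydrogenation and thiolysis of long chains. Hadha was at 4990.1, 5989, 5560.1, 5699 and 5602 normalized reads in atrial and 9141, 10781, 12146, 10079.7 and 10921 in ventricular libraries (1.91-fold, log2 difference -0.93 ± 0.11, limma, adjusted p = 0.000276). Hadhb was at 491, 638, 660.1, 658 and 605 in atrial and 1055, 1070.0, 1649.5, 1361 and 1338 in ventricular libraries (2.12-fold, log2 difference -1.07 ± 0.15, adjusted p = 0.000647). Neither gene overlapped between chambers. Hadh, the hydroxyacyl-CoA dehydrogenase for shorter chains, was at 982, 1136, 1408, 1267 and 1333 in atrial and 1806, 1991, 2414, 2251 and 2209 in ventricular libraries (1.74-fold, log2 difference -0.80 ± 0.13, adjusted p = 0.00172). Acat1, the thiolase that also acts in ketone and isoleucine use, was at 2569.5, 2988, 2389, 2392 and 2337 in atrial and 4349, 3875, 3866, 3492 and 3704 in ventricular libraries (1.52-fold, log2 difference -0.61 ± 0.11, adjusted p = 0.00327). For these 2 as well, every ventricular library exceeded every atrial one.

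Echs1, the short-chain enoyl-CoA hydratase, was at 750.3, 913, 717, 733 and 711 normalized reads in atrial and 1235, 1238, 1044, 897 and 891 in ventricular libraries, where atrial replicate 2 lay above ventricular replicates 4 and 5 (log2 difference -0.46 ± 0.13, limma, adjusted p = 0.0384). This call was lost when any of 7 libraries was left out, atrial replicates 1, 3, 4 and 5 and ventricular replicates 1 to 3 (adjusted p = 0.0631 to 0.0953). Acaa2, the thiolase for medium and long chains, differed least of the 6. It averaged 4248 ± 419 in the atrium and 5019 ± 629 in the ventricle and did not pass (log2 difference -0.24 ± 0.12, adjusted p = 0.255; 0.0337 with the replicate block and 0.0806 with library set as a term).

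For unsaturated chains, whose double bonds must be moved or reduced before they enter the cycle, Eci1 showed the largest log2 difference of the 43 genes. Eci1, a mitochondrial enoyl-CoA isomerase (ENSMUSG00000024132, chromosome 17, 24426641 to 24439348), was at 120.0, 189, 282, 312 and 288 normalized reads in atrial and 460.2, 568, 931, 916 and 877 in ventricular libraries. Replicates 1 and 2 were the lowest of each chamber, yet the lowest ventricular value was above the highest atrial one (3.15-fold, log2 difference -1.68 ± 0.30, limma, adjusted p = 0.00312). Decr1, the mitochondrial dienoyl-CoA reductase, was at 735, 967, 983, 1002 and 933 in atrial and 965, 1472, 2041, 1852 and 1762 in ventricular libraries (log2 difference -0.77 ± 0.20, adjusted p = 0.0219), a call that was lost without ventricular replicate 3, 4 or 5 (adjusted p = 0.0564 to 0.0579). Eci2, an isomerase found in peroxisomes and mitochondria, was at 572, 662, 619, 675 and 583 in atrial and 675, 1029, 838, 793 and 725 in ventricular libraries and did not pass (log2 difference -0.37 ± 0.13, adjusted p = 0.0774; 0.00748 with the replicate block), though it did without ventricular replicate 1 (adjusted p = 0.0389).

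Of the 3 peroxisomal enzymes, Ehhadh alone passed. Ehhadh, the bifunctional enzyme of dicarboxylic and long-chain acids, was at 42.8, 60.5, 46.6, 51.3 and 45.7 normalized reads in atrial and 96.9, 80.4, 76.8, 64.2 and 68.6 in ventricular libraries, without overlap (1.57-fold, log2 difference -0.63 ± 0.16, limma, adjusted p = 0.0226). The call was lost without atrial replicate 3 or 5 or ventricular replicate 3 (adjusted p = 0.0568 to 0.0625). Hsd17b4, the bifunctional enzyme for branched and very long chains, averaged 775 ± 91.1 and 1008 ± 182 (log2 difference -0.37 ± 0.14, adjusted p = 0.111; 0.00987 with the replicate block), and Acaa1a, a peroxisomal thiolase, 58.1 ± 24.3 and 71.1 ± 41.2 (-0.22 ± 0.38, 0.820; 0.340). Acaa1a and Ehhadh were among the lower of the 43 genes per kilobase of exon, and Hsd17b4, at 296 normalized reads per kilobase in the ventricle, stood well above them.

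Of the 6 thioesterases, Acot13, Acot2 and Acot1 were lower in atrial cells. Acot13, a mitochondria-associated thioesterase for long chains (chromosome 13, 24817948 to 24831540), was at 612, 818, 979, 837 and 784 normalized reads in atrial and 1751, 2108, 1772, 1854 and 1954 in ventricular libraries, far apart (2.34-fold, log2 difference -1.24 ± 0.13, limma, adjusted p = 0.000113). Acot2, the mitochondrial enzyme, was at 388, 508, 234, 249 and 261 in atrial and 671, 1299, 651, 498 and 593 in ventricular libraries (2.26-fold, log2 difference -1.16 ± 0.29, adjusted p = 0.0193). Acot1, its cytosolic relative, was at 56.5, 202, 89.8, 92.0 and 68.9 and 201, 478, 188, 206 and 188 (2.48-fold, log2 difference -1.34 ± 0.36, adjusted p = 0.0288). For both, the highest library of each chamber was replicate 2, and atrial replicate 2 lay within the ventricular range. Without atrial replicate 3, 4 or 5 the call for Acot2 was lost (adjusted p = 0.0529 to 0.0536), and without atrial replicate 1, 3, 4 or 5 that for Acot1 (adjusted p = 0.0611 to 0.0746). The 2 related genes are neighbours on chromosome 12, 15616 bases apart. Their sequences were not compared here, and reads of one may be counted for the other.

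The 3 other thioesterases did not pass. Acot11, a long-chain enzyme best known from brown fat, differed by -0.61 ± 0.26 (limma, adjusted p = 0.162; 0.0180 with the replicate block), and Acot7, a cytosolic enzyme best known from the brain, by -0.29 ± 0.31 (0.662; 0.100). Acot9, a mitochondrial enzyme, was at 274, 338, 180.1, 168 and 178 normalized reads in atrial and 225, 256, 206, 259 and 244 in ventricular libraries. Acot9 was the only one of the 43 genes whose chamber difference was itself called unequal between the library sets. It was 0.34 in replicates 1 and 2 (adjusted p = 0.499) and -0.42 in replicates 3 to 5 (adjusted p = 0.000142), and the difference between these was -0.77 ± 0.19 (limma interaction, adjusted p = 0.0467). Over all genes tested, 5.21% had such an interaction.

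The direction was shared by the library sets. Within replicates 3 to 5 alone, 33 of the 43 genes were lower and 2 (Acaca and Acad10) were higher in atrial cells, where 26.6% and 26.2% of all genes tested were called lower and higher. Within replicates 1 and 2 alone, 12 were lower and none was higher, beside 2.04% and 3.09% of all genes. The 2 sets gave 39 of the 43 genes the same sign, and the 4 others were Crot, Acad10, Acad11 and Acot9. The share of all genes tested with the same sign in both sets was not counted. In 34 of the 43 the ventricular library was the higher in all 5 same-numbered pairs, beside 20.7% of all genes tested, and in 1, Acaca, the atrial one was (20.2% of all genes).

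**Figure D4:**
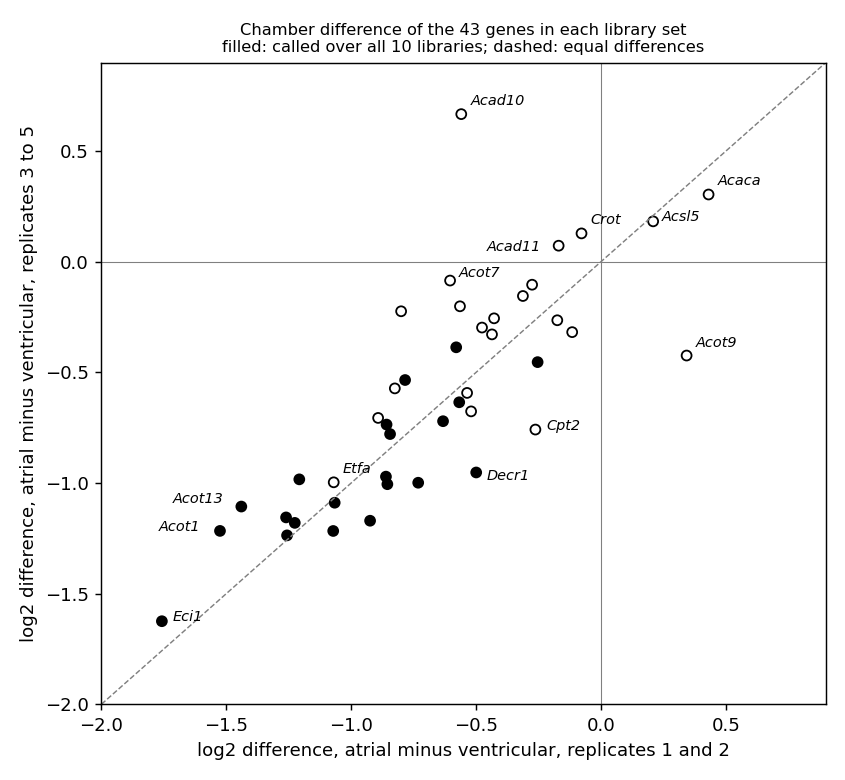
Log2 difference (atrial minus ventricular) of the 43 genes in replicates 1 and 2 (x axis) and in replicates 3 to 5 (y axis), with filled points for the 21 genes called over all 10 libraries and a dashed line of equal differences. The filled points all lie below 0 on both axes, and Acad10 and Acot9 lie farthest from the dashed line, on opposite sides of it.

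Levels were set against each other per kilobase of annotated exon, which lowers genes with long alternative exons. Over all 5 ventricular libraries the highest of the 43 were Acadl at 3427 ± 1710.4 normalized reads per kilobase, Acaa2 at 3310.4 ± 415, Acot13 at 2537 ± 198 and Etfb at 2522 ± 569 (SD, n = 5). The first 2 of these do not differ beyond their spread, nor do the last 2. Over all 5 atrial libraries the highest were Acaa2 at 2802 ± 276, Acadl at 2285 ± 1094, Etfb at 1494 ± 436 and Acot13 at 1083 ± 176. The place of Acadl differed between the library sets. In ventricular replicates 1 and 2 Acadl, at 1586, was below Acaa2, Acot13, Acadm and Etfb, which stood at 3305, 2593, 1942 and 1919. In ventricular replicates 3 to 5 Acadl was the highest, at 4654, with Acaa2 at 3314. In atrial replicates 1 and 2 Acaa2 and Acadl were at 3023 and 1093, and in atrial replicates 3 to 5 at 2655 and 3079.6. Hadha stood at 638 in atrial and 1216 in ventricular cells per kilobase and its partner Hadhb at 92.5 and 196.

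Ratios of related enzymes within a library do not depend on how libraries are scaled. Of 5 ratios compared, 2 differed between chambers by an exact two-sided permutation test over all labelings of the 10 libraries. That test ignores the replicate numbers. With exact sign flips within the 5 pairs neither passed (adjusted exact permutation p = 0.104 for both), where 5 pairs cannot give an unadjusted p below 0.0625. The ratio of Acaca to Acacb reads was 0.508, 0.310, 0.293, 0.290 and 0.327 in atrial replicates 1 to 5 and 0.287, 0.128, 0.140, 0.166 and 0.142 in ventricular replicates 1 to 5. Ventricular replicate 1 came close to the lowest atrial library without reaching it, and the mean log2 ratios were -1.57 ± 0.34 and -2.60 ± 0.47 (SD, n = 5; difference 1.04, exact permutation p = 0.00794, the smallest these labelings can give, and 0.0198 after Benjamini-Hochberg adjustment over the 5). With 10 reads added to each gene in place of 1, this ratio did not pass (log2 difference 0.97, adjusted exact permutation p = 0.0595). The ratio of Acsl4 to Acsl1 was 0.226, 0.154, 0.186, 0.165 and 0.170 in atrial and 0.0975, 0.0886, 0.0925, 0.118 and 0.111 in ventricular libraries (log2 difference 0.82, the same exact p and adjusted p). For both, the direction held in either library set, where 3 against 3 and 2 against 2 libraries cannot reach an exact permutation p below 0.10 and 0.333. The ratios Acot1 to Acot2, Acss1 to Acss2 and Cpt1a to Cpt1b differed by -0.18, -0.33 and 0.24 and did not pass (adjusted exact permutation p = 0.659 for each), the last limited by the uncertain level of Cpt1b.

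**Figure D5:**
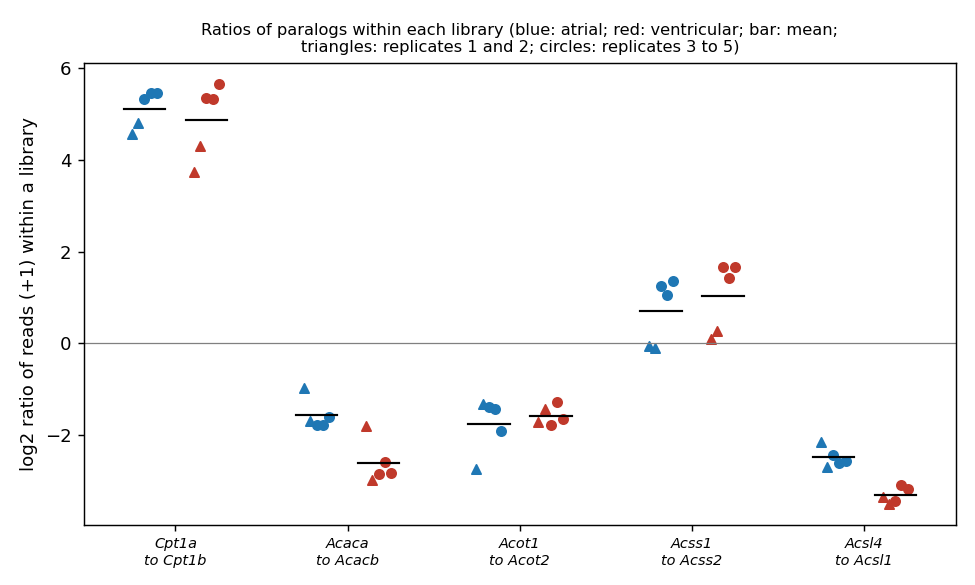
Log2 ratio of reads (with 1 read added to each gene) of 5 gene pairs within each library (y axis), atrial in blue and ventricular in red, with triangles for replicates 1 and 2, circles for replicates 3 to 5 and a bar at the mean. For Acaca to Acacb and Acsl4 to Acsl1 all blue points lie above all red ones, and for Acss1 to Acss2 and Cpt1a to Cpt1b the points part by library set instead.

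Other genes of the pathway came from a list of 51 that also holds transporters and regulators. Of the 39 tested, 9 were lower and 1 was higher in atrial cells (limma), beside 6.56% and 8.12% of all genes tested. With the replicate block 17 were lower and 2 higher, beside 16% and 16.3% of all genes tested. The median log2 difference of the 39 was -0.31. Slc25a20, the carrier that exchanges acylcarnitine for carnitine across the inner membrane, averaged 513 ± 99.4 normalized reads in the atrium and 804 ± 129 in the ventricle (limma, log2 difference -0.65 ± 0.16, adjusted p = 0.0160). Ech1, a dienoyl-CoA isomerase, and Hsd17b10, a mitochondrial hydroxyacyl-CoA dehydrogenase, differed by -0.99 ± 0.16 and -0.67 ± 0.10 (adjusted p = 0.00219 and 0.00106). Abcd3, a peroxisomal transporter, and Nudt7, a peroxisomal coenzyme A diphosphatase, differed by -0.35 ± 0.11 and -0.65 ± 0.18 (adjusted p = 0.0481 and 0.0346). Abcd3 was not called when any 1 library was left out (adjusted p = 0.0514 to 0.122), nor was Nudt7 without any 1 of 8 libraries, all but atrial replicate 2 and ventricular replicate 4 (adjusted p = 0.0522 to 0.0913). Pdk4, the kinase that restrains pyruvate use, Cd36, the fatty acid translocase, Fabp3, the heart fatty acid binding protein, and Ucp3, a mitochondrial carrier, were lower as well (log2 difference -0.59, -0.78, -2.12 and -3.16, adjusted p = 0.00679, 0.00111, 0.00371 and 0.00896). Ucp3 was at 5.52, 8.64, 11.9, 15.3 and 16.1 normalized reads in atrial and 17.3, 63.4, 229, 217 and 217 in ventricular libraries. Its values in atrial replicates 1 and 2 and ventricular replicate 1 were near the level that 3 reads give (4.14, 4.32 and 10.4). The size of its difference is uncertain, at -2.11 in replicates 1 and 2 alone and -3.86 in replicates 3 to 5 alone.

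The gene called higher in atrial cells without the block was Acsl6, a long-chain synthetase best known from the brain. It was at 23.4, 20.2, 29.5, 26.5 and 28.3 normalized reads in atrial and 6.92, 0, 4.34, 2.67 and 3.71 in ventricular libraries, without overlap (log2 difference 2.82 ± 0.51, limma, adjusted p = 0.00353). The ventricular values are at or near the level that 3 reads give, 1.85 to 10.4 normalized reads in those libraries, so the size of the difference is uncertain. On recovered reads the log2 difference was 2.87 by edgeR and 2.91 by DESeq2. Scp2, the other gene called higher with the replicate block, averaged 979 ± 189 normalized reads in the atrium and 619 ± 241 in the ventricle. The chambers overlapped, and Scp2 did not pass without the block (log2 difference 0.73 ± 0.25, limma, adjusted p = 0.0774). It passed with the block (adjusted p = 0.00179), with library set as a term (0.000355) and with equal totals (0.0306).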

How the data were processed

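RNA of 5 atrial and 5 ventricular cardiomyocyte samples was extracted with Trizol and made into ScriptSeq v2 libraries, per the labels' protocols. Trimmomatic, HISAT2 and featureCounts on GRCm38 (mm10) were used, per the submitters' processing notes; versions, annotation, strand setting and handling of overlapping genes were not given in the sources used here. Each deposited file holds a signal, gene counts divided by the library's DESeq2 size factor, per the file headers. Dividing by each library's smallest step gave whole reads for 100% of values (tolerance 0.01), 1790402 to 12842635 per library. Each value rests on that depth, 3 reads being 1.70 to 10.4 normalized reads, for counting error only.

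Genes with a mean of at least 10 were tested with limma 3.58.1 (R 4.3.3, trend and robust variance, pseudocount 1), with Benjamini-Hochberg adjustment over 12422 genes at 0.05. Alternatives were edgeR 4.0.16 and DESeq2 1.42.0 on recovered reads, other pseudocounts, filters and scaling, a replicate block, the library sets and leaving out each library; edgeR's quasi-likelihood test called 1995 genes, limma 1824. Deviations from the chamber means correlated at 0.556 to 0.637 between same-numbered libraries, all over 0.1, and 3 of 5 numbers matched best with themselves. These deviations still hold any difference between the library sets, which same-numbered libraries share, so the check cannot show pairing by number. The replicate block takes the numbers as pairs, which neither the labels nor this check establish. Library set as a term does not assume such pairs. Positions and exon lengths are from GENCODE M21, promoters from RefSeq, both GRCm38. The genes and lists were chosen with earlier results of these data known. By rule all 43 genes may be named, and of other pathway genes those called, to which Scp2, called higher with the replicate block, was added.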

Additional observations from a re-analysis of the deposited data

Results flagged for a closer look

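The chamber difference of Acot9 was unequal between the library sets. On the log2 scale it stood at 0.34 within replicates 1 and 2 but at -0.42 within replicates 3 to 5, a change of -0.77 ± 0.19 (limma interaction, adjusted p = 0.0467).

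In 12 of 86 groups of 5 libraries, the highest or lowest library stood apart by Dixon's 95% limit, which chance passes in about 1 of 20 groups. All 12 were replicates 1 or 2. Atrial replicate 2 was high for Cpt1a (756 normalized reads, others 645 to 671), Crot (472, others 339 to 353), Echs1 (913, others 711 to 750.3), Acaa2 (4982, others 3974 to 4185) and Acot1 (202, others 56.5 to 92.0). Atrial replicate 1 was high for Slc22a5 (91.0, others 74.8 to 75.3) and Acaca (254, others 137 to 163), and low for Acads (182, others 224 to 240.1) and Decr1 (735, others 933 to 1002). Ventricular replicate 2 was high for Acot1 (478, others 188 to 206) and Acot2 (1299, others 498 to 671), and ventricular replicate 1 for Acss2 (183, others 97.6 to 119).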

How the results depend on the processing

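All 21 genes called remained called, in the same direction, with a pseudocount of 0.5 or 10, a filter at a mean of 50, edgeR, DESeq2, the replicate block, library set as a term and in replicates 3 to 5 alone. Without a filter 18 remained, with equal totals 19 (not Acsl4 and Decr1) and in replicates 1 and 2 alone 11. The replicate block, which treats same-numbered libraries as pairs, gave 34 calls among the 43 genes, 4017 among all genes and 19 among the other pathway genes. Library set as a term gave 3955 among all and 19 among other pathway genes (30 of the 43). Replicates 3 to 5 alone gave 35, 6561 and 24, and replicates 1 and 2 alone 12, 638 and 2. Leaving out 1 library gave 16 to 22 calls among the 43 genes, 1365 to 1938 among all genes, 8 to 9 among other pathway genes, and a median log2 difference of -0.75 to -0.59 against -0.61.

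Direction turned only for genes and ratios that were not called over all 10 libraries. Crot moved from 0.05 to -0.077 in replicates 1 and 2 alone, and to between -0.045 and 0.14 with 1 library left out. Acad10 moved from 0.18 to -0.56 in replicates 1 and 2 alone, and to between -0.029 and 0.74 with 1 left out. Acad11 moved from -0.02 to 0.035 with equal totals, to 0.073 in replicates 3 to 5 alone and to between -0.095 and 0.057 with 1 left out. Acaa1a, at -0.22, reached -0.42 to 0.063 with 1 left out, and Acot9, at -0.12, was 0.34 in replicates 1 and 2 alone. The log2 ratio of Cpt1a to Cpt1b moved to -0.033 in replicates 3 to 5 alone and to between -0.042 and 0.44 with 1 library left out, and that of Acot1 to Acot2 to between -0.29 and 0.063. The cause was not tested.

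The ratio of Acaca to Acacb kept its direction without passing after adding 10 reads (0.97), in replicates 3 to 5 (1.03), in replicates 1 and 2 (1.05) and by exact sign flips within pairs, the replicate block (1.04). For Acsl4 to Acsl1 this held in replicates 3 to 5 (0.70), replicates 1 and 2 (1.0) and within pairs (0.82). Apart from the 10 added reads, whose effect was not traced, these have too few labelings to pass after adjustment.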
